A study of Homo sapiens with 2 samples.

Results

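Collagens are described here in 2 human leiomyosarcoma cell lines (SK-LMS-1, SK-UT-1) that derive from malignant tumours of smooth muscle and were each treated with the solvent DMSO. The members are all genes of the deposited count table whose symbol is COL, a number, A and a number. The rule found 44 genes of the 26485 in the table, and 27 of the 44 reached 1 CPM (counts scaled to a common library size) in at least 1 line and are called measured. Each line is 1 library of total RNA made with a SMARTer stranded kit, so no difference has a replicate check and no test between the lines was possible. In RNA from a whole culture, fewer cells with a transcript and less transcript per cell cannot be told apart. The study behind the series concerns an inhibitor of the histone methyltransferase SUV39H2 combined with an inhibitor of poly(ADP-ribose) polymerase in uterine leiomyosarcoma, and the 2 libraries used here show the lines with solvent only.

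Collagens are secreted or membrane proteins whose chains wind in threes into a triple helix built on repeats with glycine at regular places. Fibrillar collagens pack into the banded fibres of connective tissue, type IV forms the sheet under epithelia and around muscle cells, type VI forms beaded microfilaments, and FACIT collagens (fibril-associated collagens with interrupted triple helices) sit on the surface of fibrils. Many types need chains from different genes in 1 molecule, so the balance between partner genes bears on which trimers a cell can assemble. Smooth muscle cells are known to secrete types I, III, IV, V and VI.

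The libraries held 6906280 counts in SK-LMS-1 against 7635850 in SK-UT-1. Of 9 smooth muscle markers 7 were measured, of which 3 reached 2-fold in favour of each line and 1 lay inside that size. Over all measured genes, 21.9% reached 2-fold towards SK-LMS-1 and 18.3% towards SK-UT-1. LMOD1 (4 and 10 counts) was among the 3 towards SK-UT-1, at 2.04-fold with an interval (0.587 to 8.89) that included equal levels. SMTN, the 1 inside, was 1.98-fold towards SK-LMS-1. TAGLN, an actin-binding protein, was 11.6-fold (8.44 to 16.2), CNN1, calponin, 3.93-fold (2.35 to 6.86) and CALD1, caldesmon, 2.18-fold (2.08 to 2.29) more abundant in SK-LMS-1. ACTA2, smooth muscle actin, had 69 and 435 counts, 5.13-fold more abundant in SK-UT-1 (3.97 to 6.72). DES, desmin, had 1 and 26 counts, while MYOCD, the master regulator of the lineage, had 0 counts in both and MYH11, smooth muscle myosin, had 5 and 2. The summed level of the 9 markers, 1049 CPM against 519 CPM, was mostly CALD1 (749 and 343 CPM). Of markers of other cell types, 1 of 4 endothelial genes was measured (PECAM1, 8 and 0 counts), with VWF and KDR at 0 in both. Of 4 blood markers CD68 alone was measured (602 and 117 counts), with PTPRC at 0 in both. Of 4 cartilage markers MATN3 alone was measured (6 and 13 counts), with ACAN at 1 and 0 counts and HAPLN1 and LECT1 (now CNMD) at 0. Of 5 epithelial markers 3 were measured, KRT18 at 73.3 and 10.6 CPM, KRT8 at 16.3 and 16.2 CPM and EPCAM at 1 and 9 counts, while CDH1 had 0 and 4 counts and KRT5 had 0 in both.

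Collagen transcripts took a larger part of the SK-LMS-1 library and were divided among different genes in the 2 lines. The 44 genes held 0.444% of counts in SK-LMS-1 (exact 95% Clopper-Pearson interval 0.439 to 0.449) against 0.244% for SK-UT-1 (0.241 to 0.248). Scaled with TMM (trimmed mean of M values), their summed level was 4678 CPM against 2317 CPM, 2.02-fold more abundant in SK-LMS-1 (1.98 to 2.06). Ranges after folds and ratios are exact 95% intervals for counting error alone, with fragments treated as independent. In SK-LMS-1 the genes COL12A1, COL6A3, COL1A1 and COL1A2 made up 84.5% of collagen counts (84.1 to 84.9). In SK-UT-1 the leading 4 were COL6A3, COL5A2, COL1A2 and COL3A1, with 79.3% (78.7 to 79.9). Shares of counts are not adjusted for gene length, and the order differed per kilobase of annotated exon. By that measure COL1A1 led in SK-LMS-1 (131 CPM per kilobase, with COL6A3 at 121 and COL12A1 at 116). COL1A2 led in SK-UT-1 (86.4, with COL5A2 at 70.3 and COL6A3 at 63.8). COL6A3 held a near-equal part of both, 27.6% and 29.5%, whereas COL12A1 went from 28.7% in SK-LMS-1 to 1.78% in SK-UT-1 and COL5A2 from 0.904% to 21.0%.

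**Figure D1:**
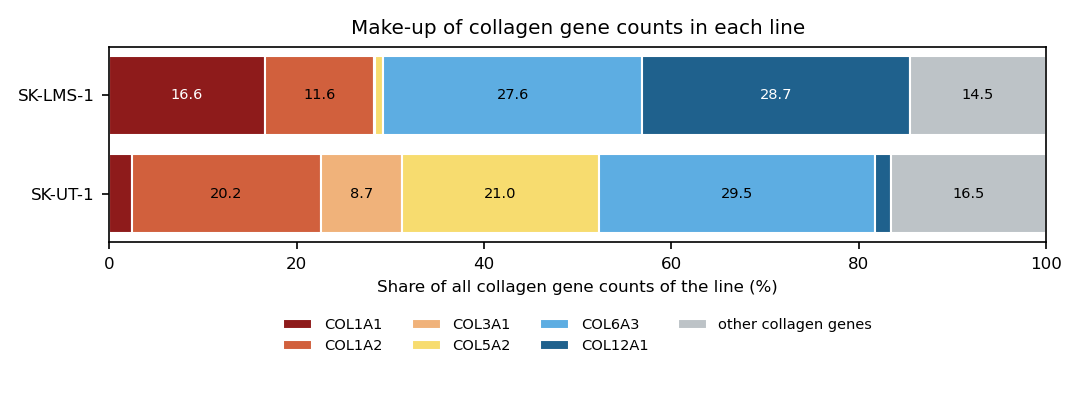
Share of all collagen gene counts (%, horizontal axis) taken by 6 genes and by the remaining members, 1 bar per line. Counts are not adjusted for gene length. COL6A3 has a similar share in both lines (27.6% and 29.5%), COL1A1 and COL12A1 are wide in SK-LMS-1, and COL3A1 and COL5A2 are wide in SK-UT-1.

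Of the 27 measured genes, 11 reached 2-fold or more in favour of SK-LMS-1, 9 did so in favour of SK-UT-1 and 7 lay inside that size. Among all 14324 measured genes, 21.9% lay at least 2-fold towards SK-LMS-1 and 18.3% towards SK-UT-1, which makes 40.2% in either direction and 59.8% within 2-fold. A gene can pass the filter through 1 line alone, which favours genes that differ, so the count over measured members is a description. The median log2 ratio (SK-LMS-1 over SK-UT-1) was 0.39 over the 27 genes and 0.01 over all measured genes. Over the 18 collagen genes with 10 counts or more in both lines it was 0.36. At 4-fold or more, 10 members were higher in SK-LMS-1 against 5 in SK-UT-1, beside 11.4% and 7.3% of all measured genes. Members stood on both sides of 2-fold in 4 of the 9 structural classes, the fibrillar, short-chain, FACIT and transmembrane collagens.

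**Figure D2:**
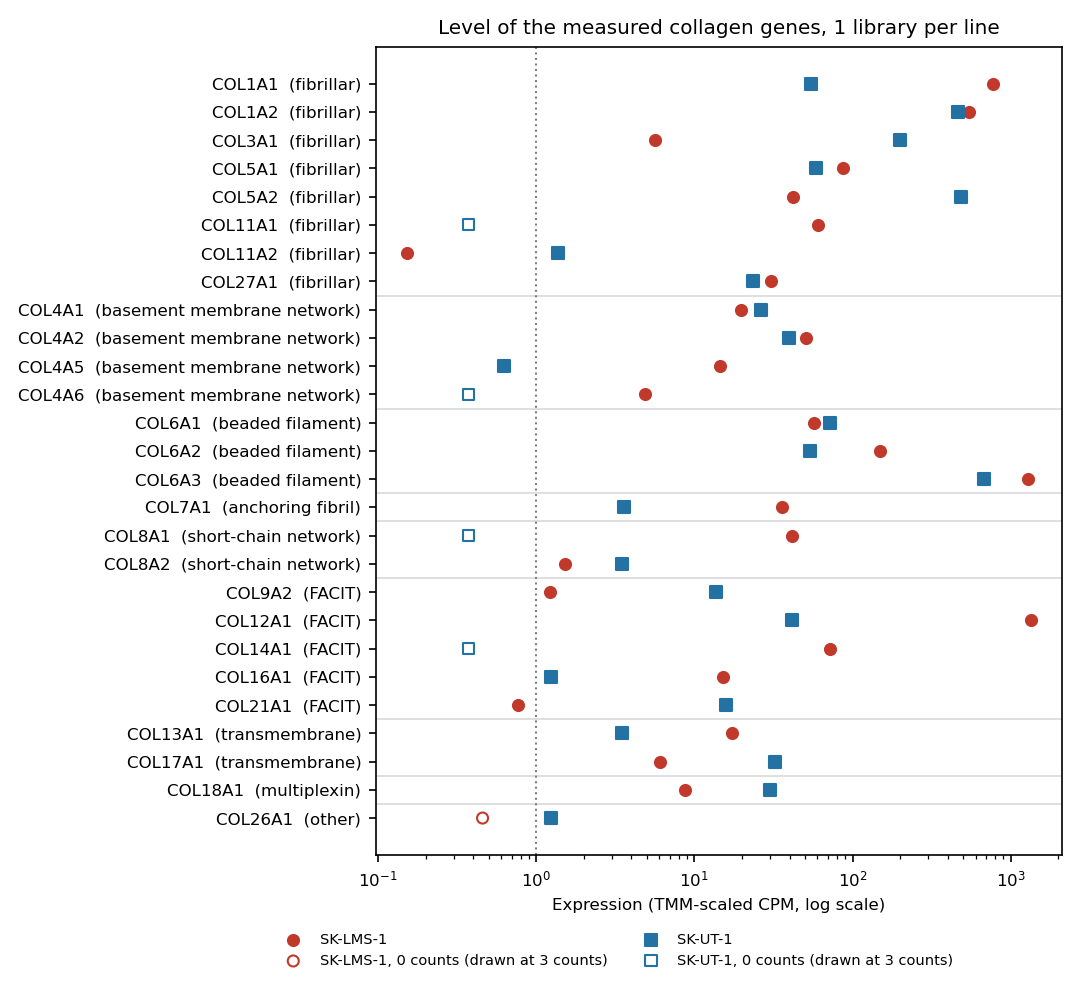
Level of each of the 27 measured collagen genes (TMM-scaled CPM, log axis) in SK-LMS-1 (circles) and SK-UT-1 (squares), grouped by structural class. Open symbols stand for 0 counts and are drawn at 3 counts, and the dotted line marks 1 CPM. Levels span from under 1 CPM to COL12A1 at 1340.3 CPM in SK-LMS-1, and 4 genes with 0 counts in SK-UT-1 lie between 4.88 and 72.2 CPM in SK-LMS-1.

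Fibrillar collagens had nearly the same summed level in the lines and a different make-up. The 11 genes summed to 1548 CPM in SK-LMS-1 against 1295 CPM in SK-UT-1, 1.20-fold more in SK-LMS-1 (1.16 to 1.23). Type I collagen, the main protein of tendon, bone and scar, is built from the chains of COL1A1 and COL1A2. COL1A1 (chromosome 17, 50184096 to 50201639, minus strand, hg38) had 5084 counts or 776 CPM in SK-LMS-1 against 442 counts or 54.9 CPM in SK-UT-1, 14.1-fold more in SK-LMS-1 (12.8 to 15.6). COL1A2 (chromosome 7, 94394561 to 94431232, plus strand) had 3568 counts or 545 CPM and 3761 counts or 467 CPM, a ratio of 1.17 (1.11 to 1.22). Of the counts of all fibrillar genes, COL1A1 took 50.1% in SK-LMS-1 but 4.24% in SK-UT-1, and COL1A2 took 35.2% and 36.1%. The 2 genes of type I collagen therefore did not differ by the same factor: COL1A1 was lower in SK-UT-1 and COL1A2 was within 2-fold.

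COL3A1, whose chain makes the type III homotrimer of soft, extensible tissues, had 37 counts or 5.65 CPM in SK-LMS-1 against 1615 counts or 201 CPM in SK-UT-1. It was 35.5-fold more abundant in SK-UT-1 (25.7 to 50.7). COL5A2, a chain of type V collagen, which starts and limits the width of type I fibrils, had 277 counts or 42.3 CPM in SK-LMS-1 against 3923 counts or 487 CPM in SK-UT-1, 11.5-fold more in SK-UT-1 (10.2 to 13.1). COL5A1, its partner, had 574 counts or 87.6 CPM and 474 counts or 58.9 CPM, 1.49-fold more abundant in SK-LMS-1 (1.31 to 1.68). COL3A1 and COL5A2 are neighbours on chromosome 2 that point at each other, 19.2 kb apart (188974373 to 189012746 on the plus strand and 189031915 to 189179879 on the minus strand). Together with COL1A2 they dominate the fibrillar counts of SK-UT-1, where COL5A2 took 37.6% and COL3A1 15.5% (2.73% and 0.365% in SK-LMS-1). Besides them, COL11A2 (1 and 11 counts) was the only measured fibrillar gene that leaned to SK-UT-1. The part of their shared position in these values was not tested.

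COL11A1, a chain of the cartilage-type collagen XI, had 395 counts or 60.3 CPM in SK-LMS-1 against none (0 counts) in SK-UT-1. Against a floor of 3 counts per library it was at least 162-fold more abundant in SK-LMS-1, and the lower end of its interval was 131. COL11A2, its usual partner, had 1 and 11 counts. Its ratio of 8.96 towards SK-UT-1 had an interval from 1.30 to 385. COL11A2 is listed on 7 contigs, so its level is uncertain and it was left out of ratios per length. COL2A1, which supplies a further chain of type XI and forms cartilage fibrils, had 0 and 2 counts. COL27A1, a fibrillar gene of cartilage and other tissues, was close between the lines at 30.5 and 23.4 CPM (1.31-fold, 1.07 to 1.60). COL5A3 had 4 and 0 counts and COL24A1 had 5 and 4.

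**Figure D3:**
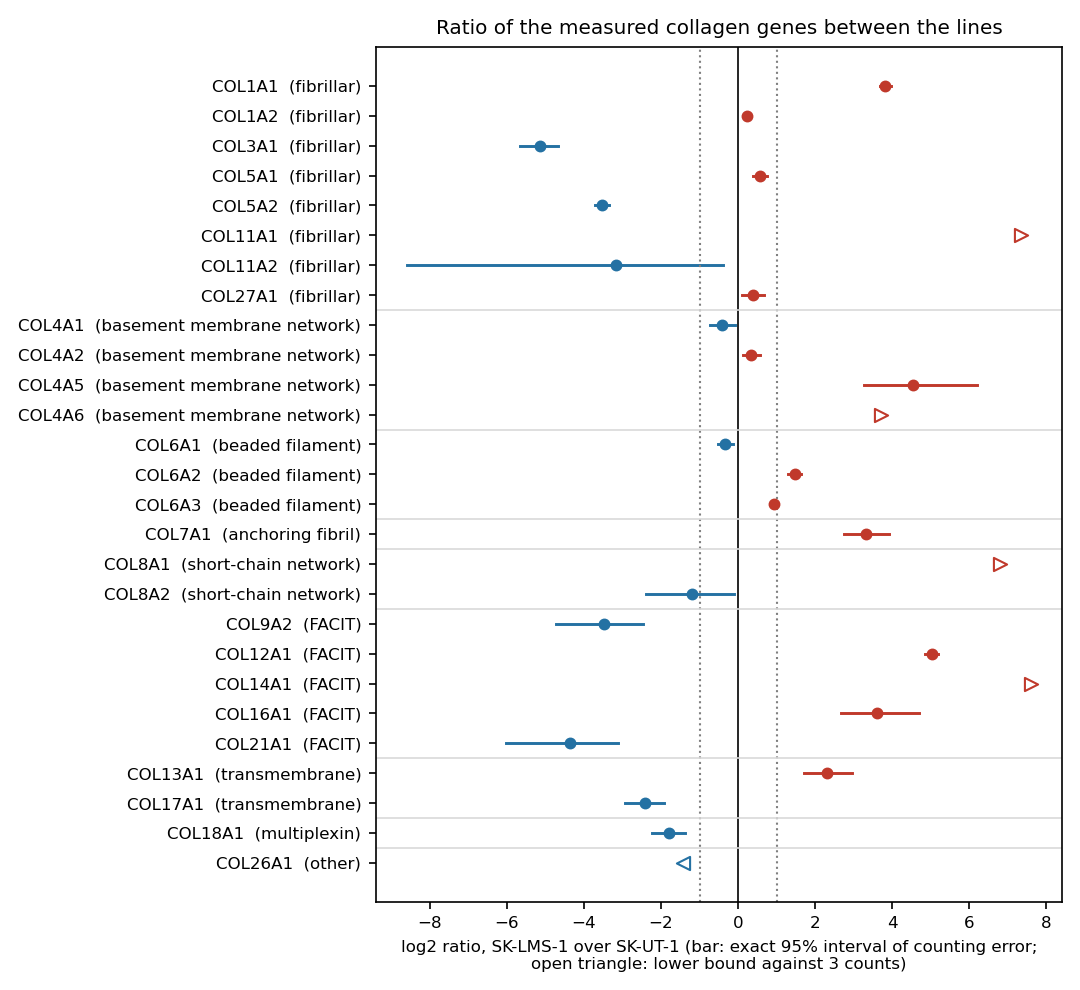
The log2 ratio of each measured collagen gene, SK-LMS-1 over SK-UT-1 (horizontal axis), with its exact 95% interval of counting error as a bar. Open triangles are genes with 0 counts in 1 line, drawn at their bound against 3 counts, and dotted lines mark 2-fold. COL3A1 lies at -5.15, COL5A2 at -3.53, COL12A1 at 5.02 and COL1A1 at 3.82, while COL1A2, COL5A1 and COL27A1 lie near 0.

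Chains that share a molecule were compared within each line by CPM per kilobase of annotated exon, a level that allows genes of different length to be set side by side. The ratio rests on the annotated length and on even recovery of both transcripts. The change of that ratio between the lines depends on neither the length nor the scaling. In SK-LMS-1 the level of COL1A1 was 131 CPM per kilobase and that of COL1A2 101, a ratio of 1.30 (1.25 to 1.36). In SK-UT-1 the levels were 9.27 and 86.4 CPM per kilobase, a ratio of 0.107 (0.0970 to 0.118). COL1A1 was thus the more abundant type I transcript in SK-LMS-1 and COL1A2 was 9.32-fold above it in SK-UT-1 (8.44 to 10.3), and the ratio differed 12.1-fold between the lines (10.9 to 13.5). Type I trimers are known to hold more chains from COL1A1 than from COL1A2.

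Type V had the same pattern. COL5A1 over COL5A2 was 1.69 in SK-LMS-1 (1.46 to 1.96) and 0.0984 in SK-UT-1 (0.0893 to 0.108), a 17.2-fold difference between the lines (14.4 to 20.5). In type VI, whose molecule takes the chains of COL6A1, COL6A2 and 1 more gene, usually COL6A3, COL6A1 over COL6A2 was 0.394 in SK-LMS-1 (0.349 to 0.444) and 1.37 in SK-UT-1 (1.21 to 1.55). In the basement membrane pair, COL4A1 over COL4A2 was 0.327 (0.265 to 0.403) and 0.552 (0.462 to 0.659), below 1 in both lines. Of the 14 partner pairs considered, these 4 and COL6A1 with COL6A3 had 10 counts or more of each chain in both lines. The ratio of COL6A1 to COL6A2 differed 3.47-fold between the lines towards SK-UT-1 (2.91 to 4.14), and that of COL4A1 to COL4A2 1.69-fold (1.28 to 2.23). COL6A1 over COL6A3 was 0.112 (0.101 to 0.124) and 0.267 (0.244 to 0.291), so COL6A3 was the most abundant type VI transcript per kilobase in both lines.

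The other 9 pairs had a chain below 10 counts in at least 1 line, and 3 of them could be read in SK-LMS-1. There COL4A5 was 3.14 times COL4A6 per kilobase (2.08 to 4.85), and COL8A1 was 39.9 times COL8A2 (21.4 to 84.1). COL5A2 and COL11A1, whose chains can meet in hybrid molecules of types V and XI, had a ratio of 0.753 (0.644 to 0.881). In the remaining pairs at least 1 chain was under 10 counts in both lines or the pair held COL11A2.

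**Figure D4:**
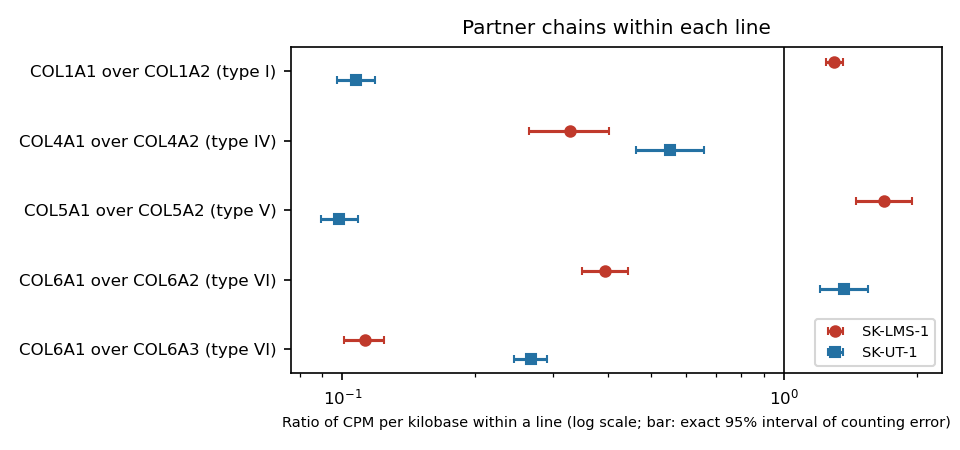
Ratio of CPM per kilobase between partner chains (log axis) within SK-LMS-1 (circles) and SK-UT-1 (squares), with exact 95% intervals of counting error. The type I and type V ratios lie above 1 in SK-LMS-1 (1.30 and 1.69) and near 0.1 in SK-UT-1, and COL6A1 over COL6A2 crosses 1 the opposite way.

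Type VI collagen, the beaded filament around cells, was abundant in both lines. COL6A3, whose long chain carries most of the globular domains of type VI, had 8461 counts or 1291 CPM in SK-LMS-1 against 5495 counts or 683 CPM in SK-UT-1, 1.89-fold more in SK-LMS-1 (1.83 to 1.96). COL6A2 stood at 149 and 54.0 CPM, 2.76-fold more abundant in SK-LMS-1 (2.47 to 3.10). COL6A1 stood at 57.2 and 71.9 CPM, 1.26-fold more abundant in SK-UT-1 (1.10 to 1.44). COL6A1 and COL6A2 lie on chromosome 21 in the same direction, 93.1 kb apart, and their ratios pointed opposite ways. COL6A5 and COL6A6, which encode alternatives to the COL6A3 chain, had 0 counts in both lines, and a count of 0 allows up to 0.458 CPM in SK-LMS-1 against 0.373 CPM in SK-UT-1 (3 counts).

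The 6 genes of basement membrane type IV lie in 3 head-to-head pairs, each with a short stretch of DNA between the gene starts, and the pairs behaved differently. COL4A1 and COL4A2, which make the common type IV network, were within 2-fold. COL4A1 had 129 and 211 counts (19.7 and 26.2 CPM), 1.33-fold more abundant in SK-UT-1 (1.06 to 1.67). COL4A2 had 331 and 321 counts (50.5 and 39.9 CPM), 1.27-fold more abundant in SK-LMS-1 (1.08 to 1.48). COL4A5 and COL4A6 on the X chromosome, whose chains join in the network around smooth muscle, were both higher in SK-LMS-1. COL4A5 had 95 and 5 counts (14.5 and 0.621 CPM), 23.3-fold more abundant in SK-LMS-1 (9.66 to 73.5). COL4A6 had 32 and 0 counts, at least 13.1-fold higher. COL4A3 and COL4A4, the kidney and lung pair, had 3 and 4 counts in SK-LMS-1 against 0 in SK-UT-1. The letters between the 2 measured pairs are printed below in the direction of COL4A2 and of COL4A5, because each stretch lies between 2 gene starts whose ratios can be read together. Sequences here are from the RefSeq promoter table (GRCh38.p14), in which 32 of the 44 collagen genes had an entry (not COL1A1, COL1A2, COL2A1, COL3A1, COL5A2, COL6A1, COL6A5, COL8A1, COL9A3, COL14A1, COL20A1 or COL22A1). Capitals mark CCAAT and GGGCGG, the letters of the CCAAT and GC boxes, and TATAAA, the TATA box, each on either strand.
COL4A1 to COL4A2, chr13:110307158-110307283, plus strand: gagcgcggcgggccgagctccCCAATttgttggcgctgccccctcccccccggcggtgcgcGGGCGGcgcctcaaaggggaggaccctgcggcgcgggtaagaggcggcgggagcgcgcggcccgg
COL4A6 to COL4A5, chrX:108439588-108439837, plus strand: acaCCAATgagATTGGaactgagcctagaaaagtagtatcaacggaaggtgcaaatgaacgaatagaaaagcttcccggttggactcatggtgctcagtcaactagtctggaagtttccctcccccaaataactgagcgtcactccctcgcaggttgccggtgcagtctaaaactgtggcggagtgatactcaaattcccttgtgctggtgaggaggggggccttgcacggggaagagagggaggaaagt
The stretch of 126 bases between COL4A1 and COL4A2 held CCAAT and GGGCGG once each, 80.2% G and C, and 20 CpG. Of the 35116 windows of the same length before a gene start in the table, 21.1% hold CCAAT and 34.6% hold GGGCGG, and the median number of CpG was 6. COL4A6 and COL4A5 start 346 bases apart, and the printed 250 bases on the COL4A5 side held CCAAT once on each strand near the COL4A6 end, no GGGCGG, 51.2% G and C, and 8 CpG. Over all windows of 250 bases, 32% hold CCAAT and 42.6% hold GGGCGG, with a median of 11 CpG. These matches describe letters and are not shown to be binding sites.

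FACIT collagens differed most in summed level among the classes of more than 3 members, at 1429.6 CPM in SK-LMS-1 against 72.3 CPM in SK-UT-1, 19.8-fold more in SK-LMS-1 (18.2 to 21.5). COL12A1, which coats type I fibrils in tissues under tension, held 93.8% of the FACIT counts in SK-LMS-1. It had 8782 counts or 1340.3 CPM in SK-LMS-1 against 332 counts or 41.3 CPM in SK-UT-1, 32.5-fold more in SK-LMS-1 (29.1 to 36.4). COL14A1, its close relative, had 473 counts or 72.2 CPM and 0 counts, at least 194-fold more abundant in SK-LMS-1. COL16A1, found at fibrils and microfibrils, had 99 and 10 counts, 12.2-fold more abundant in SK-LMS-1 (6.34 to 26.1). Those 3 genes were lower or at 0 in SK-UT-1, where COL12A1 still held 57.0% of the FACIT counts, COL21A1 21.8% and COL9A2 18.9%.

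A pair of FACIT genes went the other way. COL21A1, a FACIT of vessel walls, had 5 counts or 0.763 CPM in SK-LMS-1 against 127 counts or 15.8 CPM in SK-UT-1, 20.7-fold more in SK-UT-1 (8.63 to 64.8). COL9A2, 1 of 3 chains of the cartilage collagen IX, had 8 and 110 counts (1.22 and 13.7 CPM), 11.2-fold more abundant in SK-UT-1 (5.49 to 26.6). Its partners were not measured, with COL9A1 at 0 counts in both lines and COL9A3 at 0 and 2. The 4 cartilage markers summed to 1.07 and 1.62 CPM, and their part in the values of cartilage-type collagens was not tested. COL19A1 and COL22A1 had 0 counts in both lines and COL20A1 had 0 and 1.

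Transmembrane collagens, anchored in the cell surface with a shed ectodomain, were split. COL13A1, found at cell adhesion sites, had 113 and 28 counts (17.2 and 3.48 CPM), 4.96-fold more abundant in SK-LMS-1 (3.25 to 7.79). COL17A1, the hemidesmosome collagen of epithelia, had 40 and 262 counts (6.10 and 32.6 CPM), 5.33-fold more abundant in SK-UT-1 (3.81 to 7.64). Of the epithelial markers, which summed to 89.7 CPM and 28.3 CPM, KRT18 was higher in SK-LMS-1, KRT8 was near equal, and the few counts of EPCAM (1 and 9) and CDH1 (0 and 4) leaned to SK-UT-1. Their part in the COL17A1 value was not tested. COL23A1 and COL25A1 had 0 counts in both lines. Windows of 250 bases before the RefSeq start are printed for COL11A1 and COL12A1, high in SK-LMS-1, and for COL9A2 and COL17A1, high in SK-UT-1. They were chosen after their values were seen, to set the letters before genes of opposite direction side by side, each in the direction of its gene.
COL11A1, chr1:103108523-103108772, minus strand: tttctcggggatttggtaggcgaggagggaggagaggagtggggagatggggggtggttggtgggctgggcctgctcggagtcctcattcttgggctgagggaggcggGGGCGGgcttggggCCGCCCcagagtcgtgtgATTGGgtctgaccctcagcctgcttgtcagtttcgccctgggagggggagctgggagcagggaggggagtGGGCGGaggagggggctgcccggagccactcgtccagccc
COL12A1, chr6:75206054-75206303, minus strand: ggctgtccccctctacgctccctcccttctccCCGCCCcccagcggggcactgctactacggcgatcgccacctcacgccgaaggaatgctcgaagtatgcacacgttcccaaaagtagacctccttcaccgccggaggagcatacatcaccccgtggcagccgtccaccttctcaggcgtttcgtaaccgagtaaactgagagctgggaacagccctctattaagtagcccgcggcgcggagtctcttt
COL9A2, chr1:40317287-40317536, minus strand: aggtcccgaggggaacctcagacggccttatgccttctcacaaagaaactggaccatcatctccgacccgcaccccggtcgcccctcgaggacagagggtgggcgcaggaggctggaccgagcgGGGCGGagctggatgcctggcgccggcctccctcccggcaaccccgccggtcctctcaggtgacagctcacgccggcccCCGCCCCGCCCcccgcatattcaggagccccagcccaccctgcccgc
COL17A1, chr10:104085881-104086130, minus strand: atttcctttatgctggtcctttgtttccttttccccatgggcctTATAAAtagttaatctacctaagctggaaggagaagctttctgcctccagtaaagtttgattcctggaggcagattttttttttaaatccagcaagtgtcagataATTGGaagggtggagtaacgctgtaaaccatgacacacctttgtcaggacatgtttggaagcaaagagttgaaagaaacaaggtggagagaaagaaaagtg
GGGCGG was found 3 times before COL11A1, once before COL12A1 and 3 times before COL9A2, where 2 of the matches overlap. It was not found before COL17A1, which alone of the 4 held TATAAA, in the part of the window far from the gene start. Over all windows of that length 10.7% hold TATAAA. The COL11A1 window had 68.8% G and C and 11 CpG, and the COL12A1 window 61.2% and 21. The COL17A1 window had 40.4% G and C and 1 CpG, against 71.6% and 22 CpG before COL9A2, so 2 genes higher in SK-UT-1 differed widely in these features. Across the 32 genes with an entry, GGGCGG was present before 5 of 8 higher in SK-LMS-1, 5 of 7 higher in SK-UT-1, 4 of 5 within 2-fold and 6 of 12 not measured, which is 20 genes or 62.5%, beside 42.6% of all windows. In the same order, TATAAA was present before 3 of 8, 1 of 7, 0 of 5 and 2 of 12. These were 6 genes or 18.8%, beside 10.7% of all windows. CCAAT was present before 3 of 8, 1 of 7, 2 of 5 and 3 of 12. These were 9 genes or 28.1%, beside 32% of all windows. TGANTCA, the letters of the AP-1 site, was found in none of the 32 windows and in 6.57% of all windows.

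The remaining classes are small. COL7A1, the anchoring fibril under epithelia, had 235 and 29 counts (35.9 and 3.60 CPM), 9.95-fold more abundant in SK-LMS-1 (6.75 to 15.2). COL8A1, a short-chain collagen of vessel walls, had 272 counts or 41.5 CPM in SK-LMS-1, and 0 in the other line, at least 111-fold higher. COL8A2, its partner, had 10 and 28 counts, 2.28-fold more abundant in SK-UT-1 (1.07 to 5.26), so each line had a different type VIII chain on top. COL10A1, the collagen of hypertrophic cartilage, had 2 and 0 counts. COL18A1, a basement membrane proteoglycan that yields endostatin, had 57 and 242 counts (8.70 and 30.1 CPM), 3.46-fold more abundant in SK-UT-1 (2.58 to 4.70). COL15A1, the other multiplexin, had 2 and 1 counts. COL26A1 had 0 and 10 counts, at least 2.71-fold more abundant in SK-UT-1, and COL28A1 had 0 and 1. Of the 9 genes higher in SK-UT-1, COL11A2, COL8A2 and COL26A1 rest on fewer than 30 counts in that line.

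In all, 17 collagen genes were not measured, and 7 of them had 0 counts in both lines. The other 10 had between 1 and 5 counts in their higher library. Counting used strand, and the antisense transcripts COL4A2-AS1 (2 and 0 counts), COL18A1-AS1 (0 and 1) and COL18A1-AS2 (0 and 0) were near 0 beside their sense genes. COL3A1, COL7A1 and COL17A1 share exon bases on their strand with a microRNA gene, for at most 0.393% of their exon length.

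Genes that act on collagen were counted in 7 lists. Enzymes of hydroxylation and folding, which work on the chains in the endoplasmic reticulum, had 18 of 18 genes measured, of which 4 reached 2-fold or more in favour of SK-LMS-1, 3 in favour of SK-UT-1, with 11 inside 2-fold (median log2 ratio -0.18). Those shares were near the 21.9% and 18.3% of all measured genes. Over the 16 with 10 counts or more in both lines the median was -0.26. PLOD2, which hydroxylates lysines of the ends of fibrillar chains, stood at 656 CPM in SK-LMS-1 against 0.870 CPM in SK-UT-1 (4296 and 7 counts), 754-fold more in SK-LMS-1 (366 to 1876). COLGALT2, which adds galactose to hydroxylysine, and P3H2, a prolyl 3-hydroxylase, were 2.06-fold (1.42 to 3.03) and 3.13-fold (2.30 to 4.32) in favour of SK-LMS-1. SERPINH1, the collagen chaperone HSP47, was 2.77-fold more abundant in SK-UT-1 (2.52 to 3.04), at 86.7 and 239.8 CPM. P3H3 and P3H4, of the same family as P3H2, were 2.11-fold (1.79 to 2.50) and 3.26-fold (2.35 to 4.60) in favour of SK-UT-1.

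Of 14 measured genes of secretion and propeptide removal, 6 reached 2-fold or more in favour of SK-LMS-1, 1 in favour of SK-UT-1, with 7 inside 2-fold (median 0.28), beside 21.9% and 18.3% of all measured genes. Over the 9 with 10 counts or more in both lines the median was 0.01. TLL1, a protease of the procollagen C-proteinase family, was at least 145-fold more abundant in SK-LMS-1 (353 and 0 counts). PCOLCE and PCOLCE2, enhancers of that proteinase, were 17.2-fold (10.01 to 32.04) and 20.5-fold (9.08 to 57.1) in favour of SK-LMS-1. In the cross-linking list, 4 of 7 reached 2-fold or more in favour of SK-LMS-1 and none in favour of SK-UT-1 (median 1.96), beside the same background. Over the 6 with 10 counts or more in both lines the median was 1.57. LOX, lysyl oxidase, stood at 221 and 1.74 CPM, 127-fold more abundant in SK-LMS-1 (75.4 to 233). LOXL1 was 4.91-fold (3.72 to 6.57) and PXDN, which cross-links type IV collagen, 7.11-fold (6.49 to 7.80) in favour of SK-LMS-1.

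Receptors and degrading enzymes had no member that reached 2-fold in favour of SK-UT-1. Over all measured genes that share was 18.3%, which is few genes in lists of 9 and 8. Of 9 measured receptors, 4 reached 2-fold or more in favour of SK-LMS-1, with 5 inside 2-fold (median 0.95), beside 21.9% of all measured genes towards that line. Over the 6 with 10 counts or more in both lines the median was 0.51. ITGA2 and ITGA1, alpha chains of integrins that bind collagen, had 1187 and 204 counts in SK-LMS-1 against 0 and 2 in SK-UT-1. ITGA2 was at least 486-fold more abundant in SK-LMS-1 and ITGA1 125-fold (34.2 to 1042). Further such chains had few counts in both lines. ITGA10 had 11 and 10, a ratio of 1.35 (0.521 to 3.55), and ITGA11, not measured, had 6 and 8. MRC2, which takes up collagen fragments, was 9.09-fold more abundant in SK-LMS-1 (7.50 to 11.1). Of 8 measured degrading enzymes, 7 reached 2-fold or more in favour of SK-LMS-1, with 1 inside 2-fold (median 2.16), beside the same 21.9%. Over the 5 with 10 counts or more in both lines the median was 1.58. MMP2, a gelatinase, and MMP16, a membrane-bound metalloproteinase, were 113-fold (64.3 to 219) and 323-fold (57.5 to 12808) in favour of SK-LMS-1, the second against 1 count. MMP1, the interstitial collagenase, had 3439 and 0 counts, at least 1408-fold.

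Of the 9 small proteoglycans that bind fibrils, LUM (33 and 0 counts) and BGN (9 and 0) alone were measured. LUM, lumican, was at least 13.5-fold more abundant in SK-LMS-1. Of 8 measured transcription factors of collagen genes, 5 reached 2-fold or more in favour of SK-LMS-1, with 3 inside 2-fold (median 1.56), beside 21.9% of all measured genes. Over the 7 with 10 counts or more in both lines the median was 1.03. SOX9, the factor of cartilage collagen genes, was 10.1-fold more abundant in SK-LMS-1 (7.81 to 13.2), at 83.9 and 8.32 CPM. Among cartilage-type collagens, COL11A1 had 395 and 0 counts, towards SK-LMS-1. COL9A2 had 8 and 110 and COL11A2 1 and 11, towards SK-UT-1. COL2A1 and COL9A3 each had 0 and 2, COL10A1 had 2 and 0, and COL9A1 had 0 in both. The part of SOX9 in these values was not tested. FLI1, known as a repressor of type I collagen genes, had 94 and 1 counts, 115-fold more abundant in SK-LMS-1 (20.2 to 4608). CREB3L2, a factor that drives secretory genes, was 5.95-fold more abundant in SK-LMS-1 (5.45 to 6.51).

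**Figure D5:**
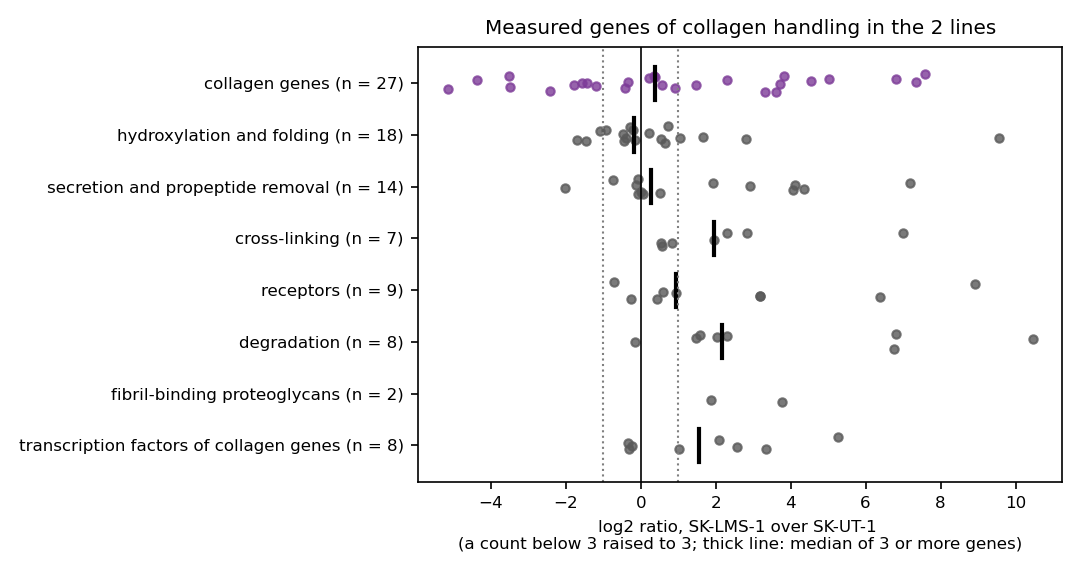
The log2 ratio of each measured gene, SK-LMS-1 over SK-UT-1, for collagen genes and 7 lists of genes that act on collagen or its genes; thick lines are medians of 3 or more genes and dotted lines mark 2-fold. Collagen genes and folding enzymes lie on both sides of 0 (medians 0.39 and -0.18), and cross-linking and degrading enzymes have medians of 1.96 and 2.16. Over genes with 10 counts or more in both lines, the last 2 medians were 1.57 and 1.58.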

How the data were processed

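Raw counts per gene were deposited by the authors, 1 library per cell line, made with featureCounts 2.0.1 on hg38 and a UCSC annotation, per the file headers. That header records fragments counted over exons with strand setting 1, and a fragment that overlaps several genes counted for each of them. The aligner was not given in the sources used here. A further 2 count columns in the file matched neither library by name and stayed out of all values.

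Counts were scaled with TMM in edgeR 4.0.16 (factors 0.949 and 1.05, SK-LMS-1 first), so 1 CPM equals 6.55 and 8.05 counts. A count below 3 was raised to 3 for log2 ratios and the 2-fold rule. A fold against 0 counts is a bound against that floor and not a 95% limit. A fold against 1 to 3 counts is the plain ratio. Intervals are exact and conditional on the summed count (scipy 1.17.1), and amplified reads without molecular identifiers may make them too narrow. The change of a partner ratio between lines is an odds ratio of 4 counts, added after the values were seen. No p-value is given.

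Every collagen gene is accounted for. Each list names up to 3 genes per direction with the largest ratios among those 2-fold different at 5 CPM or more, or its highest gene where fewer than 2 qualify; other list members and further markers named beside them were chosen after their values were seen. Members and lists were chosen with earlier results of these data known. The ratio and its interval were tested on simulated Poisson counts for 13684 genes. Fold changes were put only into genes at a mean of 5 CPM or more. All 100 genes changed 3-fold and all 100 changed 8-fold passed 2-fold, as did 190 of 13484 unchanged genes (1.41%). The interval held the true value for 97%, 94% and 95.8% of them. Counts were drawn with the error that the interval assumes, so its coverage in the real libraries was not tested. Sequences were matched by symbol in the RefSeq table and searched on both strands. Alternatives were other scalings (library totals, upper quartile, DESeq2 1.42.0), filters, size rules and floors.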

Additional observations from a re-analysis of the deposited data

How the results depend on the processing

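The 11 collagen genes counted towards SK-LMS-1 at 2-fold and the 9 counted towards SK-UT-1 were the same genes under library totals, upper quartile factors and DESeq2 size factors, and no measured member changed direction. Library totals and upper quartile factors moved the median log2 ratio of all measured genes by -0.16 and -0.15. With either, the intervals of COL27A1 and COL4A2 included equal levels, so 25 of 27 intervals excluded it in place of 27. Library totals moved the log2 ratio of COL1A1 from 3.82 to 3.67, COL1A2 from 0.22 to 0.07 and COL6A3 from 0.92 to 0.77. Each fell below its interval of counting error, as COL1A2 and COL6A3 did with upper quartile factors. The intervals therefore do not cover the choice of scaling. The median over collagen genes ranged from 0.23 with library totals to 0.57 at 5 CPM or more. The number higher in SK-UT-1 was 9 at 2-fold, 5 at 4-fold and 6 when only intervals wholly beyond 2-fold were counted. Over all measured genes the shares under these 3 rules were 18.3%, 7.3% and 10.1%. A minimum of 5 CPM left 10 and 6 of 23 genes (SK-LMS-1 first), a mean of 1 CPM 11 and 7 of 25, and 10 counts in both lines 6 and 5 of 18. Over all genes the shares were 19.7% and 14.6% at 5 CPM, and 20.9% and 16.9% at a mean of 1 CPM. For 10 counts in both lines the share over all genes was not recorded. Without a filter, and with a floor of 1 count, the counts were 11 and 9. The shares over all genes were 18.2% and 14.7% without a filter, and 21.9% and 18.3% with that floor. No paired analysis was possible because each line has 1 library, and for the same reason no library could be left out. At these depths a gene below 3 counts cannot be told from one that is not transcribed, which touches the collagen genes listed at 0 and the ratios of COL11A2 and COL26A1.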
